A study of Mus musculus with 18 samples.

Results

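The BNST, the bed nucleus of the stria terminalis, was compared with the prelimbic part of the medial prefrontal cortex (mPFC) in control mice, 3 RNA-seq libraries of the BNST against 3 of the mPFC, which are 6 of the 18 libraries of the study. The libraries are those whose labels give 1 of these regions and the control group. The study asks how both regions take part in anxiety-like behaviour during acute pain, set off by formalin, and during persistent pain, set off by complete Freund's adjuvant (CFA). All mice were adult males of the wild-type C57BL/6 strain, 6 to 8 weeks old, and the regions were taken from brains sliced in a brain matrix, so that each library is a bulk mixture of cell types. The control mice had no injection according to the methods, although figure legends of the study call them sham-treated. The other groups are BNST and mPFC 24 h after 10 µL of 1% formalin into the hind paw, 3 libraries each. They also include BNST and mPFC 72 h after 10 µL of 50% CFA, 3 libraries each. Their libraries enter the model behind the control tests, and their own values are given only beside the control results.

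The BNST is a limbic nucleus of the subpallium that lies between the septum, the striatum, the preoptic area, the thalamus and the ventricles. Most of its neurons release GABA together with neuropeptides, and it carries receptors for stress and sex hormones. The prelimbic mPFC is a pallial cortex, built from layers of glutamatergic pyramidal neurons that are held in check by local interneurons. Pallial and subpallial neurons come from separate progenitor zones and keep separate sets of transcription factors into adulthood.

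The control libraries held 14781315 to 16958300 counts in the BNST and 18558693 to 21155401 counts in the mPFC. Of 55401 genes in the table, 18994 had enough counts to be tested, with 1 edgeR quasi-likelihood model of all 18 libraries. Levels are given in CPM, the counts scaled to a common library size after TMM normalization, in the order of replicates 1, 2 and 3. A log2 fold change is BNST minus mPFC, with its standard error after the ± sign. A gene was called where its adjusted p (Benjamini-Hochberg) lay under 0.05 and its log2 fold change was above 0.5 or below −0.5. By this rule 5059 genes, 26.6% of those tested, differed between the regions. In the BNST 2783 genes (14.7%) were higher and 2276 genes (12.0%) were lower, and the median log2 fold change over all tested genes was 0.04. At least 4-fold differences were found for 848 of the higher and 404 of the lower genes. The 3 BNST and the 3 mPFC libraries did not overlap for 2595 of the higher and 2235 of the lower genes, where 48.5% of all tested genes did not overlap in either direction. The first principal component of the 6 libraries held 73.6% of the variance and separated the regions, with the BNST at −74.2, −57.1 and −68.7 and the mPFC at 71.0, 70.9 and 58.1.

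The BNST libraries were less alike than the mPFC libraries. The chi-square of replicate pairs, divided by its degrees of freedom, was 11.3 to 27.9 within the BNST and 3.95 to 9.75 within the mPFC, so none of them repeats another. Of 2511 genes that were higher in the BNST and reached a mean of 1 CPM there, 121 (4.82%) had a highest BNST library more than 4 times the lowest, compared with 1 of 2130 among genes higher in the mPFC. The lowest library of these 121 genes was replicate 3 for 66, replicate 2 for 48 and replicate 1 for 7. Going by column headings, BNST replicates 1 and 2 were sequenced on lane 1, and BNST replicate 3 and all mPFC libraries on lane 2. Lane and region thus cannot be told apart for BNST replicates 1 and 2. With the libraries of lane 2 alone, which leave 1 BNST library whose spread is taken from the other groups, 1888 of the 2783 higher and 1727 of the 2276 lower genes kept their call, while 45 and 0 changed sign. Below, the number of calls kept on lane 2 follows the counts of the gene lists for the control comparison. Counts of a list stand against the 14.7% of all tested genes that were higher and the 12.0% that were lower.

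Markers of tissues around the BNST varied between its libraries. Shox2, Gbx2 and Lhx9, homeobox genes of the thalamus, were high in 2 BNST libraries and low in the third. Shox2 had 36.3, 74.9 and 0.124 CPM in the BNST, against 0, 0 and 0 CPM in the mPFC. Lhx9 had 30.8, 49.7 and 1.55 CPM in the BNST, against 0.315, 0.0494 and 0.382 CPM in the mPFC. Tcf7l2, another thalamic factor, had 77.4, 112 and 6.501 CPM in the BNST, against 2.94, 2.91 and 4.47 CPM in the mPFC. BNST replicate 3 thus held little of these transcripts, and Shox2, Gbx2 and Tcf7l2 lost their calls on lane 2 (adjusted p = 0.38, 0.14 and 0.19). With limma-voom Shox2, Gbx2 and Lhx9 missed the threshold as well (adjusted p = 0.29, 0.15 and 0.097). Tcf7l2 also missed the threshold with the animal as a block (adjusted p = 0.090). That fit draws its control contrast only from BNST replicates 2 and 3 and mPFC replicates 1 and 3. Of 20 habenula and thalamus markers, 13 were higher and 1 was lower in the BNST (7 and 1 on lane 2). Their summed levels were 1707, 2095 and 1145 CPM in the BNST, against 784, 803 and 717 CPM in the mPFC. Pou4f1, which defines the medial habenula, had 0, 1.59 and 0 CPM in the BNST, against 0, 0 and 0 CPM in the mPFC and was not called. Lateral septum markers varied in another order. Glp1r, the receptor of glucagon-like peptide 1, had 25.5, 4.31 and 97.8 CPM in the BNST, against 0.368, 1.78 and 1.04 CPM in the mPFC (log2 fold change 5.30 ± 0.93, adjusted p = 0.00052). Crhr2, the second receptor of the corticotropin-releasing hormone family, had 7.29, 3.57 and 20.9 CPM in the BNST, against 0.841, 1.04 and 1.42 CPM in the mPFC (log2 fold change 3.26 ± 0.65, adjusted p = 0.0011). For both genes replicate 3 was the highest BNST library and replicate 2 the lowest, and every BNST library lay above every mPFC library. Prlr, also listed with the septum, was highest in replicate 2. The 13 lateral septum markers summed to 427, 326 and 916 CPM in the BNST, against 247, 240.5 and 234 CPM in the mPFC, and 8 were higher and 1 was lower (8 and 1 on lane 2).

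Striatal, choroid plexus and ependymal markers were higher in the BNST libraries too. All 24 tested markers of striatal medium spiny neurons were higher in the BNST (23 on lane 2), with sums of 5467, 6952 and 3452 CPM, against 914, 903 and 931 CPM in the mPFC. All 14 markers of ependymal cells, the ciliated lining of the ventricles, were higher (14 on lane 2), with sums of 270.5, 137 and 286 CPM in the BNST, against 10.5, 10.9 and 21.3 CPM in the mPFC. BNST replicate 2 stood apart in the choroid plexus list, which summed to 306, 1532 and 312 CPM in the BNST, against 157, 173 and 167 CPM in the mPFC. Ttr, which encodes transthyretin of the choroid plexus, had 2.35, 579 and 10.5 CPM in the BNST, against 0, 0.494 and 0.273 CPM in the mPFC. Its call (log2 fold change 9.53 ± 3.17, adjusted p = 0.030) was lost without BNST replicate 2 (adjusted p = 0.33), without any 1 of the mPFC libraries (adjusted p = 0.092, 0.086 and 0.084) and with the animal as a block (adjusted p = 0.078). Of 16 choroid plexus markers 6 were higher (3 on lane 2), and the klotho gene Kl, with 5.07, 58.7 and 6.996 CPM in the BNST, against 2.63, 1.83 and 4.96 CPM in the mPFC, was not called (log2 fold change 2.93 ± 1.61, adjusted p = 0.17). BNST replicate 2 was also the highest BNST library for Slc17a7, the vesicular glutamate transporter of cortical neurons, with 15.4, 120.5 and 11.7 CPM in the 3 libraries. The part of these neighbouring tissues in the differences below was not tested, and in bulk tissue fewer cells of a type and less RNA per cell cannot be told apart.

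**Figure D1:**
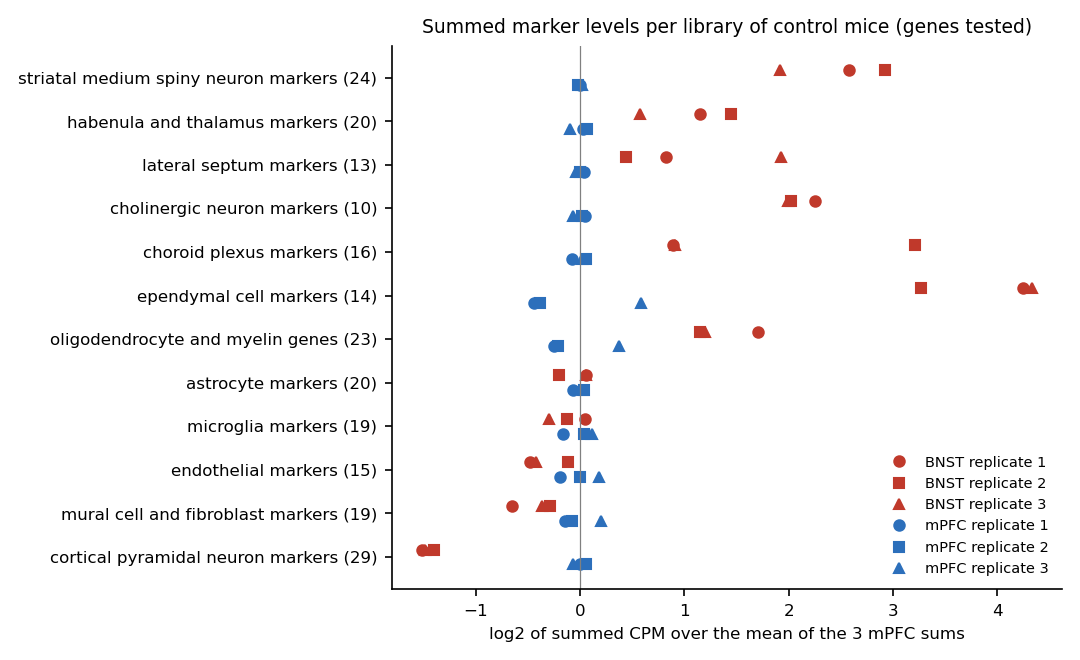
Summed CPM of 12 marker lists in each of the 6 control libraries, as log2 of the sum over the mean of the 3 mPFC sums (x axis), with the number of genes tested beside each list name (y axis) and 1 symbol per replicate, red for BNST and blue for mPFC. The thalamus list is lowest and the septum list highest in BNST replicate 3, and the choroid plexus list is highest in BNST replicate 2.

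Checked against its own markers, the dissected BNST carried the GABA, transcription factor and peptide genes of the region, while several hormone-related markers did not separate it from the mPFC. Among the genes taken as BNST markers, Gad1, Gad2, Slc32a1, Dlx6, Six3, Isl1, Lhx8, Nkx2-1, Cyp19a1, Nts, Cartpt and Penk were higher. Dlx1, Esr1 and Crh were not called. Crh, the corticotropin-releasing hormone gene, had 4.57, 5.33 and 9.66 CPM in the BNST, against 5.36, 4.89 and 4.96 CPM in the mPFC (log2 fold change 0.36 ± 0.22, adjusted p = 0.22). Esr1, the oestrogen receptor alpha gene, had 7.35, 7.37 and 7.801 CPM in the BNST, against 5.88, 5.97 and 7.74 CPM in the mPFC (log2 fold change 0.20 ± 0.16, adjusted p = 0.34). Among the mPFC markers, Slc17a7, Tbr1, Neurod6, Emx1, Fezf2, Cux2 and Etv1 were lower in the BNST, and Rorb, Pou3f1, Syt6 and Nxph4 were not. Of 29 cortical pyramidal neuron markers, 5 were higher and 14 were lower in the BNST (1 and 14 on lane 2). Syt6, a synaptotagmin of deep cortical layers, was higher in the BNST at 75.3, 86.6 and 54.2 CPM in the BNST, against 42.4, 38.3 and 41.1 CPM in the mPFC (log2 fold change 0.83 ± 0.19, adjusted p = 0.0023). Its call was lost on lane 2 (log2 fold change 0.41) and with the animal as a block (adjusted p = 0.097). Rorb, a layer 4 factor, had 44.7, 45.8 and 22.7 CPM in the BNST, against 35.9, 41.5 and 36.7 CPM in the mPFC (log2 fold change −0.01 ± 0.20, adjusted p = 0.97).

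Transcription factors of the subpallium were higher in the BNST and none was lower. Of 30 tested, 25 were called higher (22 on lane 2), with a median log2 fold change of 2.06 over the list. Lhx8, a LIM homeobox gene of basal forebrain cholinergic neurons on chromosome 3 (154306294 to 154330659, GRCm38), had 12.2, 8.73 and 10.8 CPM in the BNST, against 0, 0 and 0 CPM in the mPFC. It was at least 67.3-fold higher in the BNST, taking 3 counts per library (0.156 CPM) as the limit that the empty mPFC libraries allow. Six3, a homeobox gene of the ventral forebrain, had 48.2, 36.2 and 41.1 CPM in the BNST, against 0.158, 0 and 0.218 CPM in the mPFC (log2 fold change 8.35 ± 0.42, adjusted p = 1.7e-09). Isl1, a LIM homeobox gene of striatal and cholinergic neurons, had 19.5, 15.5 and 28.98 CPM in the BNST, against 0.0525, 0 and 0.218 CPM in the mPFC (log2 fold change 7.83 ± 0.48, adjusted p = 1.9e-08). Nkx2-1, which specifies the medial ganglionic eminence and the preoptic area, had 13.7, 5.896 and 15.2 CPM in the BNST, against 0.0525, 0.148 and 0.0545 CPM in the mPFC (log2 fold change 6.96 ± 0.61, adjusted p = 2.2e-07). These 4 genes were close to absent from the mPFC, where no library held more than 0.218 CPM of any of them. Zic1, a zinc finger gene of the septum and its surroundings, had 268, 229 and 452 CPM in the BNST, against 12.2, 19.1 and 24.3 CPM in the mPFC (log2 fold change 4.09 ± 0.32, adjusted p = 2.5e-07). Zfhx3, a large zinc finger and homeobox gene, had 72, 51.03 and 64.5 CPM in the BNST, against 6.09, 7.901 and 7.74 CPM in the mPFC (log2 fold change 3.11 ± 0.14, adjusted p = 8.0e-11). The Dlx genes, which specify GABAergic neurons in both regions, differed less. Dlx6 had 16.9, 13.8 and 29.4 CPM in the BNST, against 3.68, 3.95 and 3.98 CPM in the mPFC (log2 fold change 2.37 ± 0.21, adjusted p = 1.6e-07), whereas Dlx1 overlapped between the regions at 55.6, 31.8 and 119 CPM in the BNST, against 34.6, 36.6 and 50.9 CPM in the mPFC (log2 fold change 0.76 ± 0.33, adjusted p = 0.088). Lhx6, which cortical interneurons also express, had a log2 fold change of 0.24 ± 0.20 and was not called.

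Pallial transcription factors showed the reverse. Of 28 tested, 21 were lower in the BNST (18 on lane 2) and 1, Eomes, was higher, with a median log2 fold change of −1.57. Neurod2, a basic helix-loop-helix gene of pyramidal neurons, had 0.185, 4.195 and 0.557 CPM in the BNST, against 93.5, 98.03 and 99.5 CPM in the mPFC (log2 fold change −5.83 ± 1.13, adjusted p = 0.0012). Its relative Neurod6 had 0.124, 5.896 and 0.805 CPM in the BNST, against 119.9, 105 and 109 CPM in the mPFC (log2 fold change −5.56 ± 1.41, adjusted p = 0.0070), and the difference missed the threshold with the animal as a block (adjusted p = 0.088). Both were highest among BNST libraries in replicate 2, at a small share of the mPFC level. Fezf2, which specifies subcortical projection neurons, had 2.97, 2.89 and 5.39 CPM in the BNST, against 67.1, 53.2 and 63.7 CPM in the mPFC (log2 fold change −4.04 ± 0.28, adjusted p = 4.6e-08). Tbr1, a T-box gene of deep cortical layers, had 15.1, 16.2 and 7.99 CPM in the BNST, against 221, 206 and 205 CPM in the mPFC (log2 fold change −4.0 ± 0.26, adjusted p = 3.2e-08). Mef2c, an activity-regulated MADS-box gene, varied little within each region, with 110.0, 111 and 123 CPM in the BNST, against 914, 836 and 784 CPM in the mPFC (log2 fold change −2.88 ± 0.08, adjusted p = 2.3e-13). Lmo3, Tle4 and Cux1 were not called, with log2 fold changes of −0.04 ± 0.15, 0.08 ± 0.10 and 0.45 ± 0.08. Eomes, a T-box gene of cortical intermediate progenitors, had 7.48, 1.19 and 7.06 CPM in the BNST, against 0.158, 0.642 and 0.0545 CPM in the mPFC (log2 fold change 4.12 ± 0.81, adjusted p = 0.0010), with replicate 2 below the other BNST libraries.

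**Figure D2:**
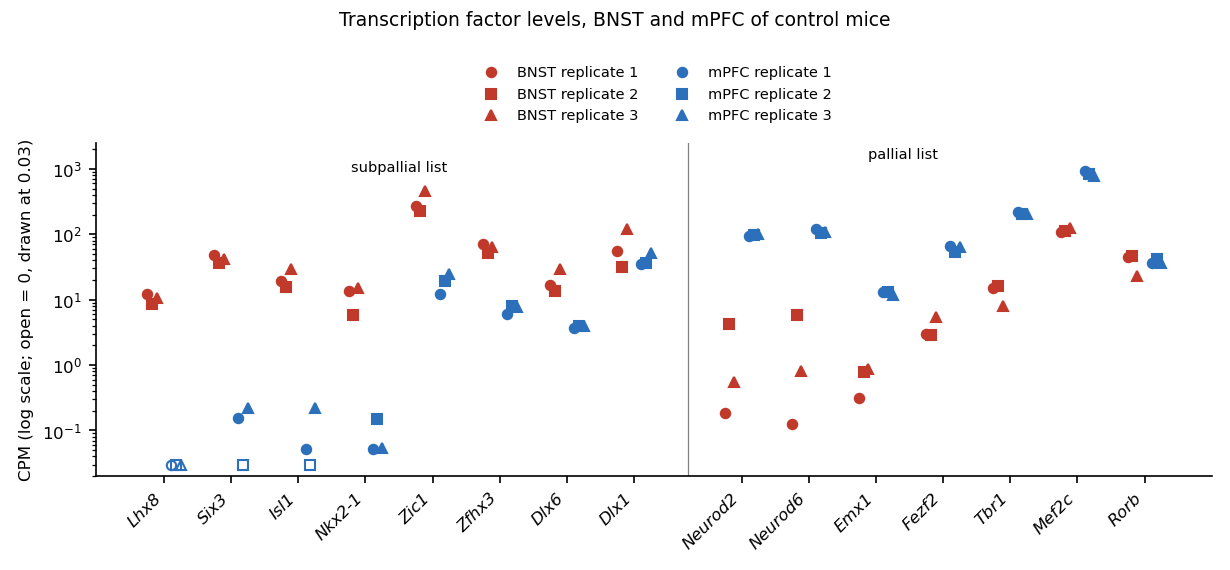
CPM on a log scale (y axis) of 15 transcription factors (x axis) in each BNST library (red, left) and each mPFC library (blue, right) of control mice, 1 symbol per replicate, with open symbols for 0. Lhx8 is at 0 in all 3 mPFC libraries, the pallial factors except Rorb lie lower in the BNST, and Dlx1 overlaps.

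Over all tested genes, 14.7% were higher and 12.0% were lower in the BNST. As a family, homeobox and POU genes were called higher more often than this background. Of 78 tested, 36 were higher and 12 were lower in the BNST (28 and 11 on lane 2), and 18 of 46 Zic, Sox and Fox genes were higher and 6 were lower (15 and 2 on lane 2). The lower shares of both lists were near that background. None of the 39 Hox genes, which pattern the hindbrain and spinal cord, had enough counts to be tested. Of 9 preoptic and hypothalamic factors, 7 were higher and 1 was lower (5 and 1 on lane 2), all at low levels. Lhx5, a LIM homeobox gene, had 2.23, 2.15 and 1.42 CPM in the BNST, against 0, 0.247 and 0 CPM in the mPFC (log2 fold change 4.38 ± 0.65, adjusted p = 3.4e-05). Tbx3, a T-box gene, had 0.494, 0.8504 and 0.805 CPM in the BNST, against 1.79, 2.52 and 3.11 CPM in the mPFC (log2 fold change −1.77 ± 0.37, adjusted p = 0.00097). Nuclear receptors, with 6 of 38 higher and 7 lower (3 and 7 on lane 2), were near the background in both directions. Rarb, a retinoic acid receptor, had 25.6, 31.6 and 15.5 CPM in the BNST, against 3.42, 3.65 and 4.47 CPM in the mPFC (log2 fold change 2.65 ± 0.23, adjusted p = 1.1e-07). Rxrg, its partner receptor, had 29.2, 62.2 and 19.8 CPM in the BNST, against 5.25, 4.25 and 5.34 CPM in the mPFC (log2 fold change 2.91 ± 0.32, adjusted p = 4.3e-06). Nr4a1, an orphan receptor induced by activity, was lower at 44.99, 69.2 and 72.2 CPM in the BNST, against 202, 204 and 183 CPM in the mPFC (log2 fold change −1.66 ± 0.17, adjusted p = 1.1e-06).

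The regions differed in their fast transmitters. Gad2, which makes GABA at terminals, had 603, 432 and 767 CPM in the BNST, against 161, 176 and 168 CPM in the mPFC (log2 fold change 1.83 ± 0.15, adjusted p = 7.6e-08). Gad1 had 594, 395 and 668 CPM in the BNST, against 267, 279 and 226 CPM in the mPFC (log2 fold change 1.10 ± 0.15, adjusted p = 1.3e-05). Slc32a1, the vesicular GABA transporter, had 168, 122 and 176 CPM in the BNST, against 47.6, 47.4 and 42.02 CPM in the mPFC (log2 fold change 1.76 ± 0.12, adjusted p = 6.2e-09). Of 8 genes of GABA synthesis, release and uptake, 6 were higher in the BNST (5 on lane 2) and Slc6a13, a GABA transporter of meninges and vessels, was lower (log2 fold change −1.31 ± 0.37, adjusted p = 0.0094, with no call on lane 2 and adjusted p = 0.060 with the animal as a block). Slc17a7, on chromosome 7 (45163949 to 45176142), had 15.4, 120.5 and 11.7 CPM in the BNST, against 1892, 1856 and 1698 CPM in the mPFC (log2 fold change −5.20 ± 0.95, adjusted p = 0.00076). Slc17a6, the vesicular glutamate transporter of thalamic and hypothalamic neurons, had 221, 328 and 35.7 CPM in the BNST, against 11.5, 8 and 8.45 CPM in the mPFC (log2 fold change 4.39 ± 0.65, adjusted p = 0.00014). Its lowest BNST library was replicate 3, as for the thalamic factors, and its log2 fold change on lane 2 was 1.94. Scaled by exon length, the BNST held 231 ± 49.5 TPM of Slc32a1, 147 ± 109.9 TPM of Slc17a6 and 37.2 ± 46.2 TPM of Slc17a7 (mean ± SD, n = 3), and the SD of Slc17a6 was as large as the distance between the glutamate transporters. In the mPFC the order ran from Slc17a7 with 1327 ± 77.6 TPM through Slc32a1 with 64.3 ± 4.495 TPM to Slc17a6 with 6.81 ± 1.44 TPM, and the SDs did not meet.

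All 10 tested genes of cholinergic neurons were higher in the BNST (10 on lane 2). Chat, which makes acetylcholine, had 17.7, 15.99 and 10.7 CPM in the BNST, against 0.2101, 0.148 and 0.164 CPM in the mPFC (log2 fold change 6.36 ± 0.51, adjusted p = 7.4e-08). Slc5a7, the choline transporter, had 33.5, 28.2 and 30.9 CPM in the BNST, against 1.79, 1.48 and 1.53 CPM in the mPFC (log2 fold change 4.27 ± 0.19, adjusted p = 3.6e-11). Slc18a3, the vesicular acetylcholine transporter, had 10.1, 5.22 and 7.18 CPM in the BNST, against 0.315, 0.444 and 0.109 CPM in the mPFC (log2 fold change 4.64 ± 0.41, adjusted p = 1.2e-07). Ache, which breaks down acetylcholine, was detected in both regions and differed less (log2 fold change 0.82 ± 0.13, adjusted p = 0.00010). Th, the rate-limiting enzyme of catecholamine synthesis, had 5.5, 5.896 and 4.21 CPM in the BNST, against 1.84, 1.98 and 2.62 CPM in the mPFC (log2 fold change 1.28 ± 0.29, adjusted p = 0.0016). It lost its call on lane 2 (log2 fold change 0.97).

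Neuropeptide genes split between the regions, where 14.7% of all tested genes were higher and 12.0% were lower. Of 52 listed, 34 could be tested, 12 were higher and 9 were lower in the BNST (8 and 9 on lane 2). Scaled by exon length, Penk led the BNST with 1097 ± 253 TPM, followed by Sst with 552 ± 97.5 TPM, and Cck led the mPFC with 1095 ± 73.7 TPM, followed by Sst with 893 ± 71.8 TPM (mean ± SD, n = 3). Penk, the precursor of the enkephalins, had 443, 544 and 316 CPM in the BNST, against 24.7, 24.8 and 22.4 CPM in the mPFC (log2 fold change 4.18 ± 0.25, adjusted p = 1.1e-08). The dynorphin precursor Pdyn had 50.2, 61.6 and 77.4 CPM in the BNST, against 26.7, 25.7 and 23.4 CPM in the mPFC (log2 fold change 1.32 ± 0.24, adjusted p = 0.00046). Pnoc, the precursor of nociceptin, had 15.4, 9.98 and 24.3 CPM in the BNST, against 4.99, 5.58 and 4.14 CPM in the mPFC (log2 fold change 1.75 ± 0.23, adjusted p = 1.0e-05). None of these 3 precursors overlapped between the regions, whereas Pomc, the precursor of beta-endorphin, had 1.48, 0.964 and 1.18 CPM in the BNST, against 0.788, 1.33 and 1.09 CPM in the mPFC and was not called (log2 fold change 0.17 ± 0.31, adjusted p = 0.71). Nts, which encodes neurotensin, had 13.3, 9.47 and 24.5 CPM in the BNST, against 0.158, 0.296 and 0.382 CPM in the mPFC (log2 fold change 5.79 ± 0.37, adjusted p = 4.4e-09). Cartpt, the CART precursor, had 10.8, 10.2 and 12.8 CPM in the BNST, against 2.89, 1.48 and 1.64 CPM in the mPFC (log2 fold change 2.49 ± 0.33, adjusted p = 1.8e-05). Tac1, the substance P precursor, had 69.4, 109.9 and 38.5 CPM in the BNST, against 10.7, 12.3 and 10.3 CPM in the mPFC (log2 fold change 2.71 ± 0.27, adjusted p = 2.3e-06). Gal, which encodes galanin, had 6.304, 10.4 and 2.23 CPM in the BNST, against 0, 0.148 and 0 CPM in the mPFC, a ratio of summed counts of 123-fold (95% exact interval 41.9 to 602). Oxt and Avp, the hormones of the paraventricular and supraoptic nuclei, were unequal among BNST libraries. Oxt had 5.5, 24.8 and 1.86 CPM in the BNST, against 0.105, 0 and 0.164 CPM in the mPFC. Avp had 2.78, 3.46 and 0.371 CPM in the BNST, against 0.0525, 0.0988 and 0.0545 CPM in the mPFC. Replicate 3 was the lowest for both, and neither was called on lane 2 (log2 fold changes 4.31 and 2.31). Both missed the threshold with limma-voom (adjusted p = 0.098 and 0.14). Avp also missed it with the animal as a block (adjusted p = 0.10).

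Several peptides that were lower in the BNST are known from cortical interneurons. Of 20 cortical interneuron markers, 3, Tac1 among them, were higher and 9 were lower in the BNST (3 and 9 on lane 2). Vip, which marks a class of disinhibitory interneurons, had 1.36, 0.794 and 2.105 CPM in the BNST, against 35.4, 38.2 and 31.01 CPM in the mPFC (log2 fold change −4.62 ± 0.45, adjusted p = 2.2e-06). Cck had 35.5, 98.4 and 7.43 CPM in the BNST, against 367, 385 and 336 CPM in the mPFC (log2 fold change −2.94 ± 0.67, adjusted p = 0.0037), with its highest BNST library again replicate 2, and missed the threshold with the animal as a block (adjusted p = 0.051). Npy had 12.9, 14.4 and 13.3 CPM in the BNST, against 37.1, 40.4 and 43.1 CPM in the mPFC (log2 fold change −1.57 ± 0.13, adjusted p = 5.5e-08). Sst, which also marks GABAergic neurons of the BNST, had 102, 79.1 and 105 CPM in the BNST, against 151, 162 and 178 CPM in the mPFC (log2 fold change −0.77 ± 0.12, adjusted p = 4.0e-05). Adcyap1, the PACAP precursor, had 5.56, 9.02 and 2.85 CPM in the BNST, against 30.1, 26.2 and 24.6 CPM in the mPFC (log2 fold change −2.21 ± 0.28, adjusted p = 1.8e-05). Crhbp, the binding protein of corticotropin-releasing hormone, had 5.75, 4.88 and 3.34 CPM in the BNST, against 17.1, 17.9 and 18.1 CPM in the mPFC (log2 fold change −1.93 ± 0.29, adjusted p = 7.2e-05). Among the granins and processing enzymes, Scg2 was higher (log2 fold change 1.47 ± 0.13, adjusted p = 1.5e-07) and Pcsk1 (log2 fold change −1.26 ± 0.10, adjusted p = 5.3e-08), Pcsk2 (log2 fold change −0.93 ± 0.22, adjusted p = 0.0037) and Chgb (log2 fold change −0.91 ± 0.20, adjusted p = 0.0019) were lower, of 11 tested, and all 4 were called on lane 2.

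Promoters of genes on both sides are shown because they share short motifs although their levels differed in opposite directions. The windows run from 250 bases before to 50 bases after the start of the gene in RefSeq (GRCm38.p6), 5′ to 3′ on the strand of the gene. A window was matched by symbol for 1544 of the 2783 higher and 1116 of the 2276 lower genes. Capitals mark TGACGTCA, the palindromic cAMP response element, in Cartpt (chr13:99900634-99900933, minus strand, higher in the BNST) and Sst (chr16:23890795-23891094, minus strand, lower in the BNST). They mark TAATTA, a palindromic homeodomain core, in Tac1 (chr6:7554811-7555110, plus strand, higher in the BNST) and Tbr1 (chr2:61804203-61804502, plus strand, lower in the BNST).
Cartpt: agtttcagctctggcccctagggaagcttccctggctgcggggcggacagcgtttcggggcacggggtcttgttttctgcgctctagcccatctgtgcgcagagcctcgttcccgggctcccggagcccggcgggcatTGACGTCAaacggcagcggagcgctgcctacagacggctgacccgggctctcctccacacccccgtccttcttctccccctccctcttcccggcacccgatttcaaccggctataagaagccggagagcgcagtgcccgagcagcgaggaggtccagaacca
Sst: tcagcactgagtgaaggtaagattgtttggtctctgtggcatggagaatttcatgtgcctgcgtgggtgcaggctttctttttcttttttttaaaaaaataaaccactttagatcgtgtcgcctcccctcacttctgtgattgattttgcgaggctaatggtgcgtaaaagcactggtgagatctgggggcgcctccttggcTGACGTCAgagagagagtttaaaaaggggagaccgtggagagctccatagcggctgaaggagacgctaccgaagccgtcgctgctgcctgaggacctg
Tac1: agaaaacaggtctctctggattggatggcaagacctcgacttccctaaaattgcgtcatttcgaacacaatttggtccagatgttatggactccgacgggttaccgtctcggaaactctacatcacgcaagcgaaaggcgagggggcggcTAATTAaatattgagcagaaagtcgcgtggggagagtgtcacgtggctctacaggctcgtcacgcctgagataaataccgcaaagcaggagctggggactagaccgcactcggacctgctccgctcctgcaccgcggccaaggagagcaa
Tbr1: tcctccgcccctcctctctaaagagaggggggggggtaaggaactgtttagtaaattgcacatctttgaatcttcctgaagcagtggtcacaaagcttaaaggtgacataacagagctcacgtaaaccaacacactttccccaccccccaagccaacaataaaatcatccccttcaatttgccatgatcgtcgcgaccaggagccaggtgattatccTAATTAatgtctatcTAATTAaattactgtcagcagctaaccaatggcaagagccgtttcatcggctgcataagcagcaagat
The element began 112 bases before the start of Cartpt and 48 bases before that of Sst, and the homeodomain core began 100 bases before the start of Tac1 and 33 and 18 bases before that of Tbr1. TGACGTCA, which reads the same on both strands, was present in 30 of 1544 promoters of higher genes (1.94%), in 37 of 1116 of lower genes (3.32%), in 247 of 7605 of tested genes that were not called (3.25%) and in 423 of all 22862 promoters (1.85%). TAATTA was present in 46 promoters of higher genes (2.98%), in 29 of lower genes (2.6%), in 200 of genes not called (2.63%) and in 1245 of all promoters (5.45%). A match describes the letters in this window and shows no binding.

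**Figure D3:**
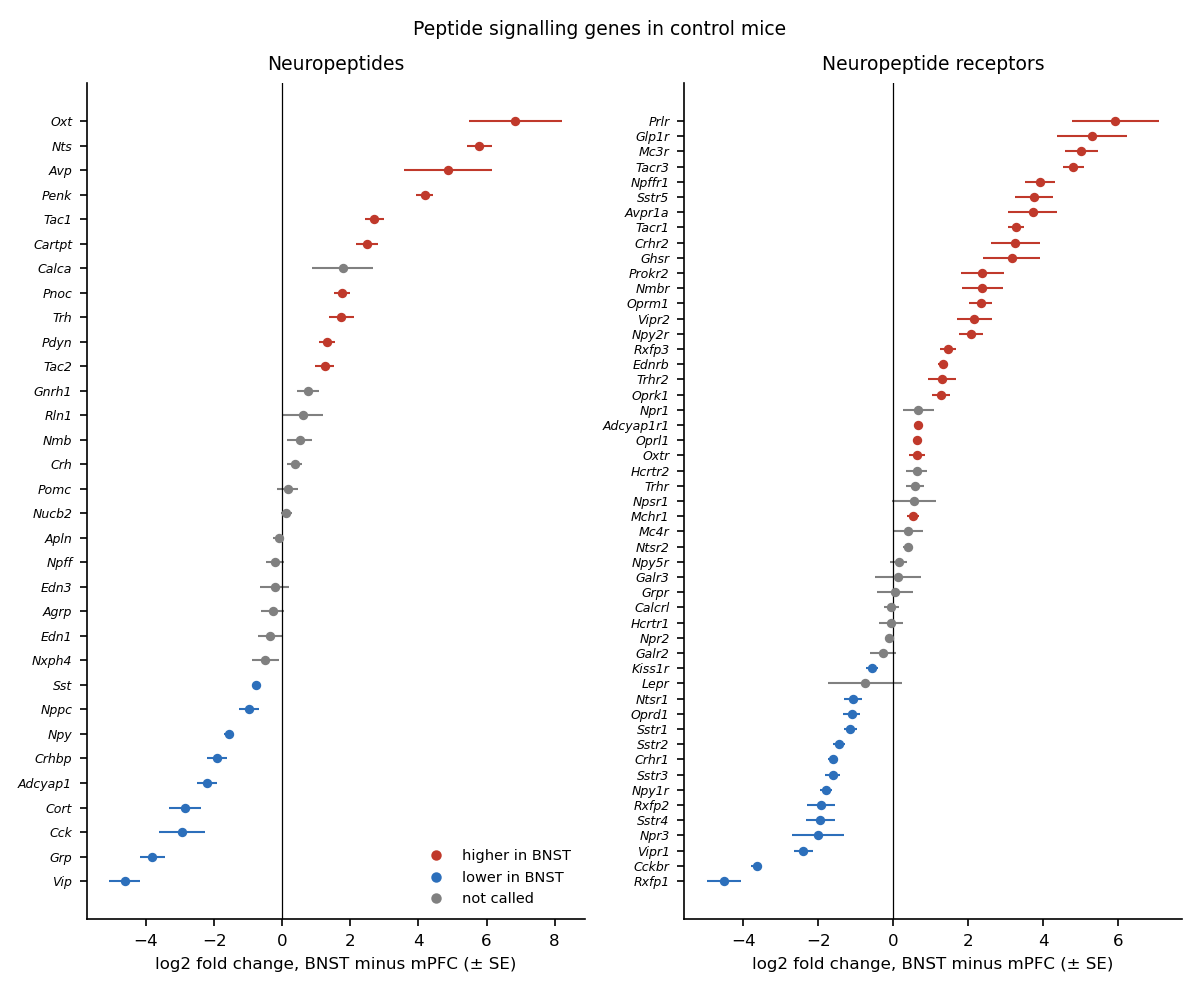
Log2 fold change, BNST minus mPFC, ± SE (x axis) of tested neuropeptide genes (left) and neuropeptide receptor genes (right) of control mice, red for higher, blue for lower and grey for not called. Genes with 3 or fewer counts over one region are not drawn, and the values run from Vip and Rxfp1 at the low end to Oxt and Prlr at the high end.

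Receptors for neuropeptides were called in both directions, and more often higher in the BNST. Of 56 tested, 28 were higher and 14 were lower (21 and 12 on lane 2). Among all tested genes 14.7% were higher and 12.0% were lower. Several families of receptors divided by member. The somatostatin receptors Sstr1, Sstr2, Sstr3 and Sstr4 were lower, with log2 fold changes of −1.14 ± 0.18, −1.44 ± 0.16, −1.61 ± 0.20 and −1.94 ± 0.38, whereas Sstr5 was higher at 2.84, 1.701 and 4.89 CPM in the BNST, against 0.158, 0.296 and 0.218 CPM in the mPFC (log2 fold change 3.76 ± 0.50, adjusted p = 1.1e-05). For neuropeptide Y, the Y1 receptor gene Npy1r had 8.16, 12.2 and 9.04 CPM in the BNST, against 36.3, 34.2 and 30.7 CPM in the mPFC (log2 fold change −1.78 ± 0.16, adjusted p = 1.7e-07) and the Y2 receptor gene Npy2r had 19.2, 16.4 and 28.1 CPM in the BNST, against 3.94, 4.69 and 6.54 CPM in the mPFC (log2 fold change 2.07 ± 0.32, adjusted p = 8.8e-05). Crhr1, the main brain receptor of corticotropin-releasing hormone, was lower at 9.39, 9.13 and 9.66 CPM in the BNST, against 33.1, 30.2 and 21.9 CPM in the mPFC (log2 fold change −1.60 ± 0.13, adjusted p = 7.0e-08), opposite in direction to Crhr2. Crhr1 varied little among the BNST libraries. Cckbr, the main cholecystokinin receptor of the cortex, had 8.899, 8.22 and 7.99 CPM in the BNST, against 111, 101 and 101 CPM in the mPFC (log2 fold change −3.64 ± 0.14, adjusted p = 1.7e-11). The other cholecystokinin receptor, Cckar, had 5.25, 5.73 and 2.66 CPM in the BNST, against 0, 0 and 0 CPM in the mPFC and was at least 29.3-fold higher in the BNST. The opioid receptors divided too. Oprm1, the µ receptor gene, had 11.2, 12.98 and 7.12 CPM in the BNST, against 1.996, 1.48 and 2.73 CPM in the mPFC (log2 fold change 2.34 ± 0.30, adjusted p = 8.5e-06). Oprk1, the κ receptor gene, had 34.5, 60.5 and 25.8 CPM in the BNST, against 14.9, 17.5 and 17.3 CPM in the mPFC (log2 fold change 1.28 ± 0.24, adjusted p = 0.00047). Oprd1, the δ receptor gene, was lower at 18.6, 22.5 and 8.85 CPM in the BNST, against 39.7, 36.2 and 31.7 CPM in the mPFC (log2 fold change −1.10 ± 0.23, adjusted p = 0.0014).

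Several receptors of the hormone and tachykinin systems were low in the mPFC. Calcr, the calcitonin receptor, had 4.57, 6.35 and 12.4 CPM in the BNST, against 0, 0 and 0.109 CPM in the mPFC, a ratio of summed counts of 223-fold (95% exact interval 61.4 to 1850). Galr1, a galanin receptor, had 7.79, 7.77 and 4.89 CPM in the BNST, against 0, 0 and 0.109 CPM in the mPFC, a ratio of 197-fold (95% exact interval 54.2 to 1640). Tacr3, the neurokinin B receptor, had 11.1, 14.1 and 9.04 CPM in the BNST, against 0.4203, 0.346 and 0.436 CPM in the mPFC (log2 fold change 4.81 ± 0.29, adjusted p = 2.0e-09). Tacr1, the substance P receptor, had 24.5, 22.6 and 19.1 CPM in the BNST, against 1.79, 2.27 and 2.73 CPM in the mPFC (log2 fold change 3.28 ± 0.21, adjusted p = 4.0e-09). Both tachykinin receptors were steady across the BNST libraries. Mc3r, a melanocortin receptor, had 3.65, 4.82 and 5.63 CPM in the BNST, against 0.158, 0.198 and 0.0545 CPM in the mPFC (log2 fold change 5.02 ± 0.44, adjusted p = 1.1e-07), whereas Mc4r was not called (log2 fold change 0.39 ± 0.40, adjusted p = 0.48). Prlr, the prolactin receptor, had 27.7, 60.3 and 43.2 CPM in the BNST, against 0.6304, 0.741 and 0.763 CPM in the mPFC (log2 fold change 5.93 ± 1.17, adjusted p = 0.0014) and is also made by the choroid plexus. Avpr1a, the main brain vasopressin receptor, followed the septal genes at 2.84, 1.25 and 11.9 CPM in the BNST, against 0.578, 0.494 and 0.109 CPM in the mPFC (log2 fold change 3.72 ± 0.67, adjusted p = 0.00034). Oxtr, the oxytocin receptor, had 12.2, 8.73 and 16.9 CPM in the BNST, against 8.98, 6.91 and 8.34 CPM in the mPFC (log2 fold change 0.64 ± 0.22, adjusted p = 0.024), and its call was lost without BNST replicate 3 (adjusted p = 0.17), without mPFC replicate 2 (adjusted p = 0.10) and with the animal as a block (adjusted p = 0.17). Rxfp1, a relaxin receptor, was the receptor furthest below the mPFC at 0.927, 6.24 and 1.05 CPM in the BNST, against 60.7, 61.2 and 70.2 CPM in the mPFC (log2 fold change −4.51 ± 0.45, adjusted p = 3.5e-06).

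Of 15 steroid receptors and enzymes tested, 4 were higher and 1 was lower (2 and 0 on lane 2). Over all tested genes 26.6% were called in either direction. Cyp19a1, the aromatase that turns androgens into oestrogens, had 0.927, 1.701 and 0.867 CPM in the BNST, against 0.0525, 0.0494 and 0 CPM in the mPFC, a low level in the BNST with 2 counts in all over the mPFC, and a ratio of summed counts of 34-fold (95% exact interval 9.01 to 287). Esr2, the oestrogen receptor beta gene, had 2.101, 2.89 and 0.619 CPM in the BNST, against 0.4203, 0.494 and 0.0545 CPM in the mPFC (log2 fold change 2.50 ± 0.59, adjusted p = 0.0028). It lost its call on lane 2 (log2 fold change 0.90). Pgr, the progesterone receptor gene, had 43.1, 43.5 and 38.5 CPM in the BNST, against 52.1, 53.2 and 41.5 CPM in the mPFC (log2 fold change −0.23 ± 0.12, adjusted p = 0.15). Nr3c1, the glucocorticoid receptor gene, had 131, 145 and 111 CPM in the BNST, against 131, 135 and 116 CPM in the mPFC (log2 fold change 0.02 ± 0.08, adjusted p = 0.87).

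Dopamine and adenosine receptors were among the largest receptor differences. Drd2 had 91.96, 115 and 51.6 CPM in the BNST, against 1.103, 1.48 and 2.56 CPM in the mPFC (log2 fold change 5.65 ± 0.38, adjusted p = 5.8e-08). Drd1 had 101, 143 and 68.3 CPM in the BNST, against 15.2, 13.5 and 15.8 CPM in the mPFC (log2 fold change 2.81 ± 0.31, adjusted p = 8.0e-06). Adora2a, which marks the medium spiny neurons of the indirect pathway, had 145, 212 and 78.7 CPM in the BNST, against 2.36, 2.81 and 2.78 CPM in the mPFC (log2 fold change 5.77 ± 0.53, adjusted p = 2.0e-06). Drd3 had 3.71, 2.67 and 2.04 CPM in the BNST, against 0, 0.0494 and 0.109 CPM in the mPFC, a ratio of summed counts of 54-fold (95% exact interval 18 to 264). All 4 had replicate 3 as the lowest BNST library, as had the summed striatal markers, and all 4 were called on lane 2. Adora1 was lower at 96.97, 127 and 53.6 CPM in the BNST, against 176, 156 and 145 CPM in the mPFC (log2 fold change −0.78 ± 0.24, adjusted p = 0.017), a call lost without mPFC replicate 1 (adjusted p = 0.058). Of 33 second messenger genes 13 were higher and 8 were lower (12 and 8 on lane 2), with a median log2 fold change of 0.14. Ppp1r1b, which encodes DARPP-32, had 638, 790.0 and 332 CPM in the BNST, against 62.5, 62.4 and 60.7 CPM in the mPFC (log2 fold change 3.25 ± 0.51, adjusted p = 0.00024). Rgs9, a regulator of G protein signalling in the striatum, had 211, 295 and 133 CPM in the BNST, against 19.96, 16.6 and 27.4 CPM in the mPFC (log2 fold change 3.32 ± 0.30, adjusted p = 9.8e-07).

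The adenylyl cyclase genes divided. Adcy5, the striatal form, had 806, 919 and 526 CPM in the BNST, against 179.5, 185 and 184 CPM in the mPFC (log2 fold change 2.04 ± 0.15, adjusted p = 1.5e-08). Adcy1, a calmodulin-stimulated form of the cortex, had 286, 338 and 205 CPM in the BNST, against 1544, 1584 and 1278 CPM in the mPFC (log2 fold change −2.41 ± 0.30, adjusted p = 1.6e-05). In each of these genes the regions stood apart. Camk2a, a kinase of glutamatergic synapses, was lower at 1147, 1172 and 1577 CPM in the BNST, against 3708, 4112 and 3814 CPM in the mPFC (log2 fold change −1.58 ± 0.20, adjusted p = 1.0e-05), and Prkcd, a protein kinase C gene, was higher at 80.8, 88.3 and 184 CPM in the BNST, against 7.302, 10.02 and 10.2 CPM in the mPFC (log2 fold change 3.68 ± 0.38, adjusted p = 4.9e-06). Gpr101, an orphan receptor, was higher at a steady 46.5, 35.95 and 62.7 CPM in the BNST, against 0.788, 0.642 and 0.654 CPM in the mPFC (log2 fold change 6.11 ± 0.27, adjusted p = 9.4e-11).

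Serotonin receptors were called in 11 of 13 cases, 6 higher and 5 lower in the BNST (6 and 3 on lane 2). Among all tested genes 26.6% were called in either direction. Htr2c had 106, 128 and 135 CPM in the BNST, against 20.1, 18.02 and 20.4 CPM in the mPFC (log2 fold change 2.66 ± 0.42, adjusted p = 0.00023). Htr2a, the other main receptor of the same subfamily, had 12.9, 18.03 and 14.2 CPM in the BNST, against 53.3, 59.4 and 42.1 CPM in the mPFC (log2 fold change −1.77 ± 0.18, adjusted p = 1.5e-06). Htr1d had 9.703, 9.47 and 5.26 CPM in the BNST, against 0.683, 0.296 and 0.382 CPM in the mPFC (log2 fold change 4.15 ± 0.35, adjusted p = 7.3e-08). Htr1b had 42.1, 40.9 and 34.1 CPM in the BNST, against 12.9, 13.4 and 16.8 CPM in the mPFC (log2 fold change 1.44 ± 0.14, adjusted p = 4.3e-07). Htr7 had 29.6, 38.8 and 30.1 CPM in the BNST, against 8.46, 8.15 and 7.58 CPM in the mPFC (log2 fold change 2.03 ± 0.22, adjusted p = 2.4e-06). None of these receptors overlapped between the regions. The ion channel Htr3a, a marker of cortical interneurons, was lower at 1.73, 2.04 and 1.18 CPM in the BNST, against 7.99, 7.26 and 7.36 CPM in the mPFC (log2 fold change −2.18 ± 0.20, adjusted p = 1.8e-07). Htr1a overlapped between the regions at 31.6, 7.99 and 37.9 CPM in the BNST, against 23.9, 20.4 and 18.4 CPM in the mPFC (log2 fold change 0.30 ± 0.39, adjusted p = 0.58).

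Of 12 adrenergic and histamine receptors, 3 were higher and 7 were lower (2 and 6 on lane 2). Among all tested genes 14.7% were higher and 12.0% were lower. The receptors called higher were the α2 receptors, which inhibit adenylyl cyclase. Adra2a had 31.6, 19.4 and 60.5 CPM in the BNST, against 13.2, 13.3 and 17.8 CPM in the mPFC (log2 fold change 1.33 ± 0.30, adjusted p = 0.0029). Adra2b had 3.89, 8.85 and 4.396 CPM in the BNST, against 0, 0.0494 and 0.0545 CPM in the mPFC, with summed counts 167-fold (95% exact interval 45.9 to 1390) higher. Adra2c had 40.2, 42.2 and 22.9 CPM in the BNST, against 20.8, 22.1 and 17.4 CPM in the mPFC (log2 fold change 0.80 ± 0.17, adjusted p = 0.0014), without a call on lane 2 (log2 fold change 0.18). The α1 receptors, which act through phospholipase C, and the β receptors were lower. Adra1d had 5.93, 3.17 and 2.6 CPM in the BNST, against 54.1, 51.3 and 36.2 CPM in the mPFC (log2 fold change −3.60 ± 0.53, adjusted p = 0.00011), Adra1a had a log2 fold change of −1.16 ± 0.15, and Adrb1 had 14.6, 13.8 and 15.7 CPM in the BNST, against 46.2, 39.4 and 34.8 CPM in the mPFC (log2 fold change −1.45 ± 0.16, adjusted p = 2.0e-06). Of 15 acetylcholine receptor genes tested, 4 were higher and 4 were lower (2 and 4 on lane 2). Chrm1 and Chrm3, which act through phospholipase C, were lower (log2 fold changes −1.56 ± 0.21 and −1.47 ± 0.22), and Chrm2, which inhibits adenylyl cyclase, was higher at 45.4, 29.3 and 39.2 CPM in the BNST, against 20.3, 17.9 and 18.6 CPM in the mPFC (log2 fold change 1.0 ± 0.15, adjusted p = 4.0e-05). Chrna5, a nicotinic subunit of deep cortical layers, was lower at 0.247, 0.454 and 0.186 CPM in the BNST, against 8.3, 6.82 and 4.14 CPM in the mPFC (log2 fold change −4.39 ± 0.72, adjusted p = 0.00017).

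GABA-A receptor subunits differed for 5 of 16 genes, 3 higher and 2 lower (3 and 2 on lane 2), near the background share. Gabre and Gabrq, rare subunits of neurons in the hypothalamus and brainstem, had 5.44, 8.05 and 10.7 and 19.5, 30.4 and 34.1 CPM in the BNST, against 0.2101, 0.247 and 0.109 and 1.31, 0.889 and 1.58 CPM in the mPFC (log2 fold changes 5.35 ± 0.39 and 4.47 ± 0.30, adjusted p = 1.3e-08 and 1.2e-08). Gabrg1 had 87.1, 65.1 and 111 CPM in the BNST, against 23.9, 24.9 and 24.7 CPM in the mPFC (log2 fold change 1.84 ± 0.16, adjusted p = 2.0e-07). Gabra3 was lower at 115, 118 and 116 CPM in the BNST, against 194, 201 and 184 CPM in the mPFC (log2 fold change −0.73 ± 0.12, adjusted p = 0.00011). Of 18 ionotropic glutamate receptor subunits, 3 were higher and 7 were lower (2 and 5 on lane 2). Grin2a, an NMDA receptor subunit of mature cortex, had 85.6, 97.01 and 87.98 CPM in the BNST, against 326, 321 and 254 CPM in the mPFC (log2 fold change −1.74 ± 0.31, adjusted p = 0.00054). Gria3, an AMPA receptor subunit, had 174, 169.5 and 205 CPM in the BNST, against 407, 408 and 362 CPM in the mPFC (log2 fold change −1.10 ± 0.12, adjusted p = 1.8e-06). Grin2d, the NMDA subunit of subcortical neurons and interneurons, was higher at 58.03, 56.9 and 49.8 CPM in the BNST, against 28.9, 24.9 and 27.7 CPM in the mPFC (log2 fold change 1.01 ± 0.16, adjusted p = 0.00011), and the AMPA subunits Gria1 and Gria2 were not called (log2 fold changes 0.35 ± 0.15 and −0.11 ± 0.14). Of 7 metabotropic ones 3 were higher and 1 was lower (2 and 0 on lane 2). Grm4 had 73.2, 92.8 and 55.2 CPM in the BNST, against 24.6, 27.9 and 22.2 CPM in the mPFC (log2 fold change 1.56 ± 0.20, adjusted p = 1.5e-05).

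Among all tested genes 14.7% were higher and 12.0% were lower. Ion channel genes were more often lower than higher in the BNST among potassium channels. Of 46 voltage-gated potassium channel genes, 9 were higher and 17 were lower (7 and 16 on lane 2), and of 34 inward rectifier, two-pore and calcium-activated ones, 8 were higher and 16 were lower (5 and 13 on lane 2). Kcnh7 had 53.9, 56.02 and 38.1 CPM in the BNST, against 215, 219 and 173 CPM in the mPFC (log2 fold change −2.04 ± 0.12, adjusted p = 2.1e-09). Kcnv1, a silent subunit, had 25.5, 37.2 and 23.2 CPM in the BNST, against 130.3, 129 and 102 CPM in the mPFC (log2 fold change −2.07 ± 0.27, adjusted p = 2.6e-05). Both had every BNST library below every mPFC library. Kcnj3, Kcnj6 and Kcnj9, the subunits of G protein-gated potassium channels of cortical neurons, were all lower (log2 fold changes −1.17 ± 0.16, −1.60 ± 0.27 and −1.28 ± 0.31), whereas Kcnj5, another subunit of such channels, was higher at 19.2, 17.97 and 4.83 CPM in the BNST, against 0.841, 0.148 and 0.436 CPM in the mPFC (log2 fold change 4.88 ± 0.64, adjusted p = 2.9e-05). Kcna5 was higher at 13.9, 14 and 13.2 CPM in the BNST, against 2.26, 1.88 and 2.62 CPM in the mPFC (log2 fold change 2.60 ± 0.23, adjusted p = 1.0e-07).

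Among sodium channels, 5 of 13 were higher and 2 were lower (5 and 2 on lane 2). Scn9a, known from pain-sensing neurons, had 29.1, 36.97 and 34.05 CPM in the BNST, against 5.67, 6.67 and 10.6 CPM in the mPFC (log2 fold change 2.12 ± 0.20, adjusted p = 2.6e-07), and the beta subunit Scn4b had 628, 825 and 207 CPM in the BNST, against 71.4, 83.2 and 47.2 CPM in the mPFC (log2 fold change 3.04 ± 0.43, adjusted p = 8.4e-05). Scn4b was lowest in BNST replicate 3. Scn8a was lower (log2 fold change −0.97 ± 0.13), and the share of lower sodium channels was near the background. Over all tested genes 14.7% were higher and 12.0% were lower. Of 22 calcium channel genes, 7 were higher and 8 were lower (4 and 8 on lane 2). The alpha2delta subunits, which bring calcium channels to the membrane, divided, with Cacna2d2 at 238, 139 and 294 CPM in the BNST, against 43.8, 44.8 and 43.3 CPM in the mPFC (log2 fold change 2.34 ± 0.19, adjusted p = 2.2e-07) and Cacna2d1 at 119, 143 and 107 CPM in the BNST, against 338, 335 and 283 CPM in the mPFC (log2 fold change −1.37 ± 0.12, adjusted p = 9.8e-08). Hcn4, a pacemaker channel, had 27.5, 30.2 and 12.3 CPM in the BNST, against 5.94, 6.07 and 4.31 CPM in the mPFC (log2 fold change 2.10 ± 0.33, adjusted p = 0.00013). Of 17 TRP channel genes, 6 were higher and 4 were lower (4 and 4 on lane 2), among them Trpc7 at 11.9, 9.19 and 13.7 CPM in the BNST, against 2.36, 1.83 and 3.33 CPM in the mPFC (log2 fold change 2.21 ± 0.24, adjusted p = 1.5e-06) and Trpv6 at 4.45, 4.99 and 1.86 CPM in the BNST, against 21.6, 17.8 and 18.9 CPM in the mPFC (log2 fold change −2.36 ± 0.29, adjusted p = 7.7e-06).

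**Figure D4:**
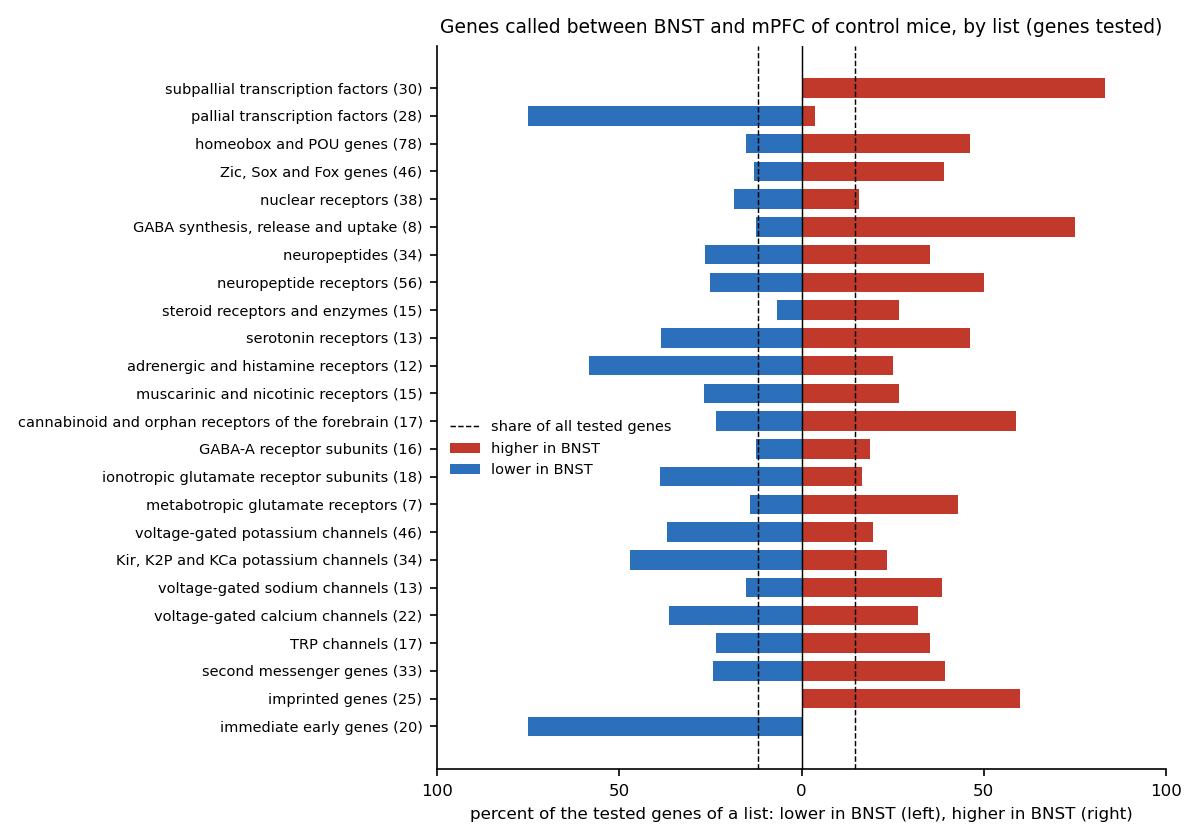
Percent of the tested genes of 24 lists that were higher (red, right) or lower (blue, left) in the BNST than in the mPFC of control mice (x axis), with the number of genes tested beside each list name (y axis). Dashed lines mark the shares of all tested genes, 14.7% higher and 12.0% lower, and subpallial factors and immediate early genes stand at opposite ends.

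Cell types other than neurons differed in part. All 23 oligodendrocyte and myelin genes were higher in the BNST (21 on lane 2). Their sums were 11912, 8108 and 8397 CPM in the BNST, against 3087, 3161 and 4736 CPM in the mPFC, and the median log2 fold change was 1.30. Mobp, a protein of central myelin, had 1987, 1079 and 1138 CPM in the BNST, against 346, 346 and 619 CPM in the mPFC (log2 fold change 1.68 ± 0.31, adjusted p = 0.00055). BNST replicate 1 and mPFC replicate 3 were the highest of their regions. Of 10 markers of oligodendrocyte precursors, 5 were higher and 0 lower (4 on lane 2). Foxj1, the master regulator of motile cilia, had 46.4, 24.8 and 38.8 CPM in the BNST, against 2.73, 3.31 and 3.98 CPM in the mPFC (log2 fold change 3.46 ± 0.33, adjusted p = 1.7e-06). Among 20 astrocyte markers 7 were higher and 1 was lower (6 and 0 on lane 2). Agt, the angiotensin precursor of astrocytes outside the cortex, had 67.98, 108 and 38.1 CPM in the BNST, against 2.15, 4 and 3.54 CPM in the mPFC (log2 fold change 4.46 ± 0.43, adjusted p = 2.5e-06). Slc6a11, an astrocytic GABA transporter, had 494, 492 and 353 CPM in the BNST, against 152, 161 and 163 CPM in the mPFC (log2 fold change 1.49 ± 0.16, adjusted p = 2.1e-06). Slc1a2, the main glutamate transporter of astrocytes, was lower at 2617, 2010.0 and 3085 CPM in the BNST, against 3740.0, 4077 and 3837 CPM in the mPFC (log2 fold change −0.60 ± 0.13, adjusted p = 0.0015). Its call was lost without BNST replicate 2 (log2 fold change −0.45, below the fold threshold) and on lane 2 (log2 fold change −0.33). Gfap and Aqp4 were not called (log2 fold change 0.53 ± 0.28, adjusted p = 0.16, and log2 fold change 0.43 ± 0.13, adjusted p = 0.012).

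None of the 19 microglia markers was called, and 4 of them had an unadjusted p under 0.05 in edgeR, whereas DESeq2 and limma-voom called 0 and 0. Their sums were 581, 515 and 458 CPM in the BNST, against 502, 577 and 609 CPM in the mPFC. Cx3cr1, the fractalkine receptor of microglia, had 53.6, 49.1 and 43.3 CPM in the BNST, against 50.9, 59.3 and 62.5 CPM in the mPFC (log2 fold change −0.24 ± 0.10, adjusted p = 0.072). Of 15 endothelial markers 5 were lower and 0 higher (2 lower on lane 2), and of 19 mural cell and fibroblast markers 7 were lower and 1 was higher (3 and 1 on lane 2). With the animal as a block 0 of the 5 endothelial and 3 of the 7 mural and fibroblast calls were kept. Rgs5, a gene of pericytes, had 35.9, 48.99 and 38.7 CPM in the BNST, against 59.7, 76.7 and 81.4 CPM in the mPFC (log2 fold change −0.82 ± 0.13, adjusted p = 8.0e-05). None of the 13 mitochondrially encoded genes and none of the 3 haemoglobin genes tested was called, with 0 and 0 at an unadjusted p under 0.05 in edgeR, 0 and 0 called by DESeq2 and 0 and 0 by limma-voom.

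Imprinted genes, expressed from the copy of 1 parent, were higher in 15 of 25 cases in the BNST and lower in none (14 on lane 2). Peg10 had 253, 154 and 380.3 CPM in the BNST, against 18.5, 16 and 19.4 CPM in the mPFC (log2 fold change 3.87 ± 0.27, adjusted p = 9.0e-08). Magel2 had 24.9, 16.3 and 50.8 CPM in the BNST, against 1.79, 1.78 and 2.34 CPM in the mPFC (log2 fold change 3.96 ± 0.38, adjusted p = 1.2e-06). Nnat had 412, 261 and 391 CPM in the BNST, against 64.9, 48.9 and 124 CPM in the mPFC (log2 fold change 2.17 ± 0.31, adjusted p = 9.3e-05). The 3 genes were all lowest in BNST replicate 2. Peg3 had 963, 938 and 1095 CPM in the BNST, against 556, 575 and 541 CPM in the mPFC (log2 fold change 0.84 ± 0.09, adjusted p = 1.3e-06). Ndn had 388, 384 and 452 CPM in the BNST, against 225, 187 and 219.8 CPM in the mPFC (log2 fold change 0.96 ± 0.13, adjusted p = 1.1e-05). These genes lie on several chromosomes, and the smaller differences of Peg3 and Ndn came at high levels in both regions. Immediate early genes, which neurons switch on within minutes of firing, were lower in 15 of 20 cases in the BNST and higher in none (11 on lane 2). Bdnf had 2.905, 7.54 and 2.35 CPM in the BNST, against 29.2, 28.6 and 25.5 CPM in the mPFC (log2 fold change −2.69 ± 0.49, adjusted p = 0.00070). Arc had 75.03, 117 and 152 CPM in the BNST, against 313, 383 and 311 CPM in the mPFC (log2 fold change −1.55 ± 0.27, adjusted p = 0.00041). Nr4a3 had 14.96, 15.2 and 16.4 CPM in the BNST, against 64.4, 51.2 and 59.3 CPM in the mPFC (log2 fold change −1.91 ± 0.36, adjusted p = 0.00074). Egr1 had 136, 188 and 211 CPM in the BNST, against 421, 354 and 299 CPM in the mPFC (log2 fold change −1.01 ± 0.20, adjusted p = 0.00097). The regions did not overlap for any of the 4. Fos overlapped between the regions at 12.8, 31.01 and 56.8 CPM in the BNST, against 54.3, 46.2 and 45.9 CPM in the mPFC (log2 fold change −0.54 ± 0.44, adjusted p = 0.36). Among BNST libraries Fos, Arc and Egr1 were lowest in replicate 1 and highest in replicate 3.

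Adhesion and guidance genes were called in both directions, where 14.7% of all tested genes were higher and 12.0% were lower. Of 21 cadherins, 4 were higher and 6 were lower, of 22 Eph receptors and ephrins 3 were higher and 5 were lower, and of 29 semaphorins and plexins 6 were higher and 7 were lower (4 and 6, 1 and 3, and 4 and 5 on lane 2). Cdh8 had 84.3, 84.99 and 108 CPM in the BNST, against 57.95, 54.7 and 45.95 CPM in the mPFC (log2 fold change 0.80 ± 0.15, adjusted p = 0.00032). Cdh10 had 30.6, 30.3 and 33.1 CPM in the BNST, against 56.2, 65.2 and 57.9 CPM in the mPFC (log2 fold change −0.93 ± 0.11, adjusted p = 2.4e-06). Both cadherins were separated without overlap although their differences were small. Ephb6, a receptor without kinase activity, had 78.5, 105 and 50.8 CPM in the BNST, against 327, 289 and 249 CPM in the mPFC (log2 fold change −1.88 ± 0.21, adjusted p = 6.3e-06). Efnb3 had 242, 176 and 274 CPM in the BNST, against 88.3, 67.3 and 113 CPM in the mPFC (log2 fold change 1.36 ± 0.22, adjusted p = 0.00014). Of 16 synaptotagmins, the calcium sensors of vesicle release, 4 were higher and 5 were lower (2 and 5 on lane 2). Syt1 was lower at 984, 1051 and 1063 CPM in the BNST, against 2156, 2040.0 and 1777 CPM in the mPFC (log2 fold change −0.95 ± 0.12, adjusted p = 5.4e-06) and Syt10 was higher at 25.3, 20.7 and 19.2 CPM in the BNST, against 6.88, 5.09 and 7.47 CPM in the mPFC (log2 fold change 1.75 ± 0.22, adjusted p = 6.2e-06).

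The genes with the largest differences at 5 CPM or more included pairs that overlap in the genome. Six3os1, a noncoding gene on the minus strand of chromosome 17 (85600651 to 85618398), overlaps Six3 on the plus strand (85613608 to 85629302). It had 32.6, 19.9 and 40.9 CPM in the BNST, against 0, 0 and 0 CPM in the mPFC and was at least 197-fold higher in the BNST. D130058E05Rik overlaps Gbx2 on chromosome 1 in the opposite direction, and had 6.304, 10.7 and 0.371 CPM in the BNST, against 0, 0 and 0.0545 CPM in the mPFC, high in the same libraries as Gbx2 and without a call on lane 2 (adjusted p = 0.10). Sfta3-ps lies 2531 bases from Nkx2-1 on chromosome 12 and had 9.09, 4.42 and 9.22 CPM in the BNST, against 0, 0 and 0 CPM in the mPFC, at least 47.9-fold higher. Ankk1, 7017 bases from Drd2 on chromosome 9, had 8.84, 9.13 and 4.58 CPM in the BNST, against 0, 0 and 0.109 CPM in the mPFC, a ratio of summed counts of 218-fold (95% exact interval 59.9 to 1810). Among the genes lower in the BNST, Gm13601 overlaps Xirp2 on chromosome 2 on the other strand and had 0.0618, 0 and 0.0619 CPM in the BNST, against 5.096, 6.91 and 4.69 CPM in the mPFC, and its summed counts were 140-fold (95% exact interval 38.5 to 1160) higher in the mPFC. Xirp2 itself had 0.0618, 0.227 and 0 CPM in the BNST, against 3.42, 4.099 and 2.67 CPM in the mPFC (log2 fold change −5.0 ± 0.50, adjusted p = 4.9e-07). Since the strand setting of the counting is not given in the sources used here, reads of such pairs cannot be told apart where they overlap.

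Other genes stood at the extremes as well. Ovol2, a zinc finger gene best known from epithelia, had 0, 0.113 and 0 CPM in the BNST, against 9.88, 7.61 and 8.56 CPM in the mPFC, and its summed counts were 216-fold (95% exact interval 59.6 to 1790) higher in the mPFC. Krt80, a keratin gene, had 0.0618, 0.227 and 0.186 CPM in the BNST, against 10.98, 13.6 and 11.3 CPM in the mPFC (log2 fold change −6.17 ± 0.40, adjusted p = 3.7e-09). Rspo2, an activator of Wnt signalling, had 1.298, 2.33 and 0.3096 CPM in the BNST, against 45.5, 45.9 and 44.5 CPM in the mPFC (log2 fold change −5.08 ± 0.48, adjusted p = 1.8e-06). Rtn4rl2, a relative of the Nogo receptor, had 1.05, 2.15 and 0.186 CPM in the BNST, against 60.6, 56.1 and 65.5 CPM in the mPFC (log2 fold change −5.71 ± 0.73, adjusted p = 3.9e-05). On the other side Spata18 had 14.1, 4.48 and 12.3 CPM in the BNST, against 0, 0 and 0.0545 CPM in the mPFC, a ratio of summed counts of 584-fold (95% exact interval 104 to 23100). Clic6, a chloride channel gene also made by the choroid plexus, had 13.2, 40.5 and 29.4 CPM in the BNST, against 0.105, 0.0988 and 0.164 CPM in the mPFC (log2 fold change 7.76 ± 1.99, adjusted p = 0.0076, but adjusted p = 0.25 with limma-voom). Gm10635, Dkkl1, C730002L08Rik, Igfn1, Gm39822 and Prdm8 were lower too, with log2 fold changes between −5.85 and −4.85, and C730002L08Rik overlaps Aldh1a1 on the other strand.

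The same contrast was made in the other mice, within the same model of all 18 libraries. Group means come from separate libraries, but the gene filter, scaling and spread are shared, so the calls are not independent. Between BNST and mPFC of formalin mice 6325 genes (33.3%) were called, 18.8% of those tested as higher and 14.5% as lower. Of CFA mice 7233 (38.1%) were called, 20.7% as higher and 17.4% as lower. Of the 2783 genes higher in the control BNST, 2169 (77.9%) were also higher in formalin mice and 2190 (78.7%) in CFA mice, and 1885 in both. Of the 2276 lower genes, 1833 (80.5%) were lower in formalin mice, 1828 (80.3%) in CFA mice and 1604 in both. Of the higher genes 2 were lower in formalin mice and 41 in CFA mice, and of the lower genes 2 were higher in formalin mice and 5 in CFA mice. Six3, Isl1, Lhx8 and Nkx2-1 were called higher in the BNST of both. Zic1 had log2 fold changes of 4.25 in formalin mice and 4.42 in CFA mice, against 4.09 in control mice. For Mef2c they were −3.44, −3.16 and −2.88 in the same order, and for Gpr101 5.81, 6.48 and 6.11. Of the 30 subpallial factors 25 were higher in formalin mice and 21 in CFA mice, with 0 and 2 lower. Adra2c was called lower in the BNST of CFA mice (log2 fold change −1.31), opposite to the control mice.

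Counts of striatal and choroid plexus markers are given side by side for the treatments, and no difference between treatments was tested. Of 24 markers, 23 were higher in the BNST of formalin mice and 11 in the BNST of CFA mice, where 1 was lower, against 24 in control mice. Drd1 had log2 fold changes of 2.04 in formalin mice, 0.04 in CFA mice and 2.81 in control mice. Those of Pde10a, a striatal phosphodiesterase, were 1.98, −0.16 and 2.88 in the same order, and those of Drd2 were 5.24, 3.27 and 5.65. Of 16 choroid plexus markers, 16 were higher in the BNST of formalin mice and 16 in that of CFA mice, against 6 in control mice. One CFA library of the BNST, replicate 2, stood apart in this list, with summed levels of 623, 28696 and 495 CPM in the BNST of CFA mice, against 161, 147 and 154 CPM in their mPFC. Without it 8 of the choroid plexus markers and 9 of the striatal markers were higher in the BNST of CFA mice. Imprinted genes were higher in 13 and 16 of 25 cases in formalin and CFA mice, and immediate early genes were lower in 14 and 16 of 20, against 15 and 15 in control mice.

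**Figure D5:**
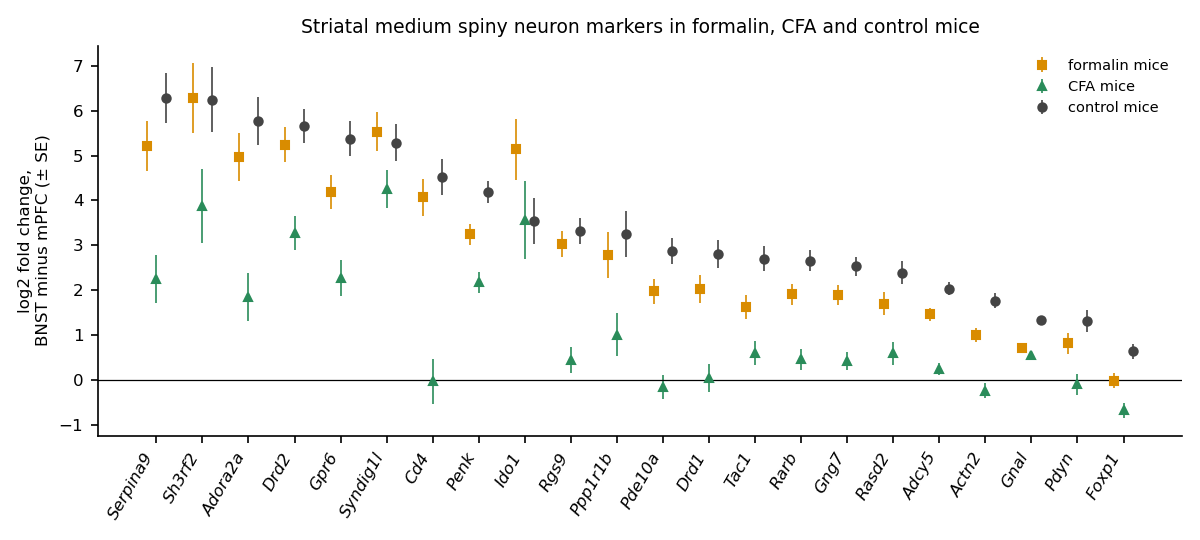
Log2 fold change, BNST minus mPFC, ± SE (y axis) of 22 of the 24 striatal medium spiny neuron markers (x axis, ordered by the control value) in formalin, CFA and control mice, 1 symbol per treatment. Spata18, with 1 count in the control mPFC, is not drawn, and Drd1 and Pde10a lie near 0 in CFA mice.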

How the data were processed

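mRNA of BNST and prelimbic mPFC was sequenced as paired reads. The authors trimmed the reads with Trimmomatic 0.39, aligned them with HISAT2 2.2.1 to the mouse genome (GRCm38, named mm10 in the submitters' processing notes), sorted them with SAMtools and assigned them to genes with featureCounts 2.0.1, and the deposited table holds raw counts per gene for the 18 libraries. The strand setting of the counting is not given in the sources used here. Column headings of a supplementary table were matched to the deposited libraries by equal counts in 367 of 367 genes. The number after the region in a heading was read as the animal, and that after the letter L as the lane.

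From the counts, TMM factors and quasi-likelihood tests were computed with edgeR 4.0.16 in R 4.3.3 (robust fit, minimum count 10 and minimum total 15 by filterByExpr, 6 groups, 12 residual degrees of freedom). The contrast was BNST minus mPFC, with Benjamini-Hochberg adjustment over 18994 genes. The standard error is the absolute log2 fold change over the root of the F statistic. TPM used the summed exon length of GENCODE. For genes with 1 to 3 counts over a region, the ratio of summed counts is given with its exact 95% interval, and for genes without counts a bound from 3 counts per library. These cover counting error only. Depth was 14781315 to 21155401 counts per control library. Gene names came from GENCODE M21, promoters from RefSeq tables (GRCm38.p6). The script was tested on simulated data.

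The comparison, the gene lists and the rules were chosen with earlier results of these data known. Named genes are the 15 with the largest differences in each direction at 5 CPM or more, up to 3 per list and direction at 1 CPM or more, members that did not pass, and defining genes of both regions. Of the 198 genes named, 44 others, among them Tacr1, Oprm1, Npy1r, Mc3r, Mef2c, Zfhx3, Pdyn and Peg3, were picked once their values had been seen. In the headings the libraries of a group carry different numbers, which were read as different animals. Each p-value rests on the spread of libraries within all 6 groups, with 12 residual degrees of freedom.

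Going by the headings, replicate numbers do not pair the regions. BNST replicate 2 and mPFC replicate 1 carry the number 2 there, and replicate 3 of both regions the number 4. The correlations of the deviations from the group means were 0.108 and 0.166. Read as the animal, this number was the block of an alternative fit. BNST replicate 1 and mPFC replicate 2 share their number with no other control library and add nothing to its control contrast. Calls lost with this number as the block therefore cannot tell pairing from fewer libraries. The headings give only this number, with 4 values among the control libraries. The methods describe both regions taken from each of 3 brains per group, so which libraries share an animal is uncertain. Other alternatives were DESeq2 1.42.0, limma-voom (limma 3.58.1), RLE and upper quartile scaling, filters on low counts, a replicate block, a minimum fold change in the test, fits of fewer libraries and leaving out each library. Some members of the lists are counted but not reported by name here.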

Additional observations from a re-analysis of the deposited data

Results flagged for a closer look

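Adra2c, which encodes an α2 adrenergic receptor, differed between the regions in opposite directions in CFA and control mice, without overlap of the libraries in either. In CFA mice it had 13.8, 14.2 and 10.1 CPM in the BNST, against 30.6, 32.4 and 31.2 CPM in the mPFC, a log2 fold change of −1.31 (edgeR adjusted p = 1.1e-05). In control mice the log2 fold change was 0.80, with the lowest BNST library, replicate 3, just above the mPFC. That control call was lost on lane 2, the lane of all CFA libraries. Over all tested genes 41 were called higher in control and lower in CFA mice, and 5 the reverse. Only genes named in the text were searched for such reversals. The difference between treatments was not tested.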

How the results depend on the processing

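Of the 5059 genes called in control mice, 3673 kept their call with the animal as a block, where 3835 genes were called, and 4822 with the replicate number as a block, where 4990 were called. The animal block draws nothing for the control contrast from BNST replicate 1 and mPFC replicate 2. The replicate block changed no call of a gene named in the text except for Gfap and Pou4f1, which passed with it. Testing against the fold threshold itself (glmTreat) gave 2992 genes, 1647 higher and 1345 lower, and dropping the fold minimum gave 7549. The other alternatives gave 4473 to 5393 genes, and leaving out 1 control library gave 4520 to 5117. Leaving out 1 library of the same contrast gave 5759 to 6514 genes in formalin mice and 6358 to 7600 in CFA mice. With only the 6 libraries compared, 193 of the 198 named genes were tested. Of these, 8 lost their calls, among them Adora1, Adra2a, Cck, Kcnj9, Oxtr, Pcsk2 and Ttr. Kl passed with DESeq2 (log2 fold change 2.90). On lane 2 alone Pou3f1, not called in all libraries, was lower in the BNST (log2 fold change −0.56), opposite in sign to the fit of all libraries. The causes were not tested. The higher share among calls was 50.4% to 55.9% over these fits. Of the 198 genes named, 4 lost a call on leaving out 1 control library, namely Adora1, Oxtr, Slc1a2 and Ttr. For DESeq2, Slc17a7, Neurod2, Neurod6 and Rtn4rl2 had no adjusted p.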
